A study of Mus musculus with 6 samples.

Results

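The genes described here are those that encode the α chains of collagens. They were chosen by name: every probe that was no array control and whose gene name consisted of Col, a type number, the letter a and a chain number was taken. This gave 40 genes measured by 73 probes, out of 50090 gene names and 61307 probes on the array. NIH3T3, an established line of mouse embryonic fibroblasts, had been transduced with a retrovirus carrying GFP alone or GFP fused to SIRT7, a nuclear deacetylase of the sirtuin family. All lines had been selected in geneticin and grown in DMEM with FBS. GFP cells were the control and came from single-cell clones. LT7 (long, spindle-shaped cells overexpressing SIRT7) and ST7 (small, round cells overexpressing SIRT7) were picked from around and from within compact colonies of confluent SIRT7 cultures, and each was then grown from single cells, so that a line can carry traits of its clone as well as of the transgene. Each group had 2 arrays, with RNA from different passages, and no time course or dose was part of the comparison.

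Collagens are trimers of α chains that wind around each other along a Gly-X-Y repeat. Fibrillar types (I, II, III, V, XI, XXIV, XXVII) build banded fibrils, with type I the main fibril of skin, bone and tendon and type V a minor chain that sets fibril width. Type IV forms the network of basement membranes, FACIT collagens (fibril-associated with interrupted triple helices) sit on fibril surfaces, and type VI forms beaded filaments around cells. Fibroblasts are the main source of types I, III, V and VI in connective tissue.

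The level of whole arrays differed before any collagen was considered. The 75th percentile of the processed signal, the background-subtracted brightness of a spot in arbitrary units, was 384 and 323 on the GFP arrays, 341 and 317 on the LT7 arrays, and 16.3 and 17.1 on the ST7 arrays. A probe is called detected on an array where the scanner software marked it as well above background, and a group is said to be at background where neither of its arrays carried that mark. Between 53.5% and 57.5% of probes were detected in GFP, 47.4% to 47.5% in LT7 and 25.6% to 26.4% in ST7. Each log2 change below is taken after subtracting this percentile array by array (the percentile shift). On that scale the median of all probes was 3.72 higher in ST7 than in GFP in log2 units, while it was lower, at -0.68, without scaling. The brighter Sirt7 probe read 3125 and 2480 on the GFP arrays, 3633 and 2782 on those labelled LT7, and 2.85 and 3.28, at background, on those labelled ST7. Whether this probe reads the transgene was not tested, so its signal does not check the labels, and ST7 stands below for the arrays so labelled. Of 9 fibroblast markers, 8 were detected on both arrays of GFP and of LT7, against 2 (Vim and S100a4) in ST7. Their summed signal before scaling was 259480 to 273298 in GFP, 276775 to 279177 in LT7, but 14673 to 16262 in ST7. Vim alone read 14612 and 16192 in ST7. After the shift 7 of the 9 were lower in ST7 than in GFP with an adjusted p under 0.05 in limma (19.1% of all gene names). Vim was 5.58-fold higher. Of 7 epithelial markers, 2, 1 and 4 were detected on both arrays of GFP, LT7 and ST7, with a summed signal of 112 to 191, 133 to 173 and 2005 to 2212. Those detected in ST7 were Krt18, Epcam, Cldn3 and Dsp, and Krt18 alone read 1881 and 1755 there. Krt8 read 123 and 62.2 in GFP against 15.3 and 5.82 in ST7. Krt19 was at background in ST7, and Cdh1 in every group. None of 4 endothelial and 3 skeletal muscle markers was detected on both arrays of a group. Of 4 macrophage markers, Cd68 and Csf1r were detected in GFP and LT7 and Ptprc and Emr1 in no group, with a summed signal of 185 to 250 in GFP, 278 to 358 in LT7 and 14.7 to 18.0 in ST7. In total RNA of a culture, fewer cells of a kind and less RNA per cell cannot be told apart, and the part of these shifts in the collagen values was not tested.

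Collagen transcripts were widely measured in GFP and LT7 cells and seldom in ST7 cells. Counting each gene by its brightest probe, 29 of the 40 genes were detected on both GFP arrays (50.4% of all gene names), 26 on both LT7 arrays (42.2%) and 10 on both ST7 arrays (23.0%), while 29 collagen genes were at background in ST7. The share in ST7, 10 of 40, lies near that of all gene names. All 11 fibrillar genes, 5 of 6 basement membrane genes, 5 of 9 FACIT genes and all 3 genes of type VI were detected on both GFP arrays. On the ST7 arrays these counts were 3, 1, 2 and 1. Of the single collagen probes, 46 were detected on both GFP arrays, and 16 of these also on both ST7 arrays (34.8%), against 34.9% of 21439 probes for protein-coding transcripts. The loss of detection was thus about as frequent among collagen probes as among others. The brightest probes of Col1a1 and Col1a2, the chains of type I collagen, were saturated on both GFP and both LT7 arrays, where they give only a lower limit, and on no ST7 array. In all 1.56% of gene names were saturated on both GFP arrays, 1.11% on both LT7 arrays and 0.256% on both ST7 arrays.

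**Figure D1:**
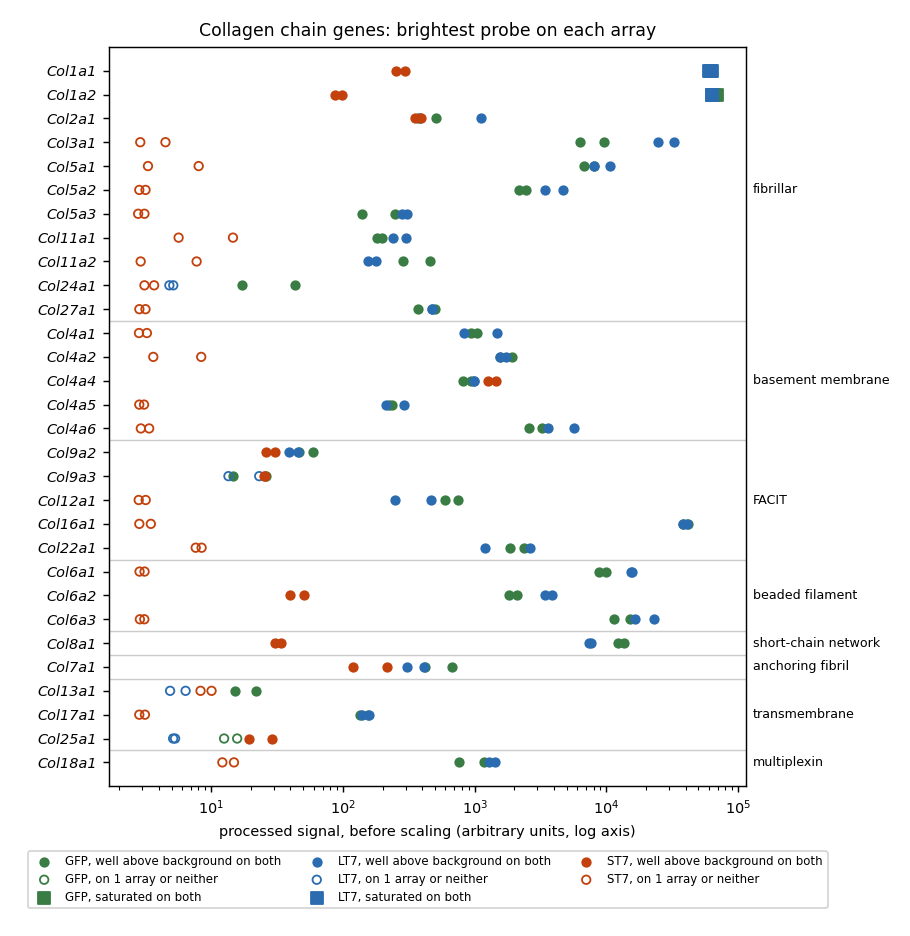
Processed signal before scaling (log axis) of the brightest probe of 30 collagen genes on each of the 6 arrays, by type of collagen. Filled points were detected on both arrays of the group, open points on 1 or neither, squares were saturated on both. Most ST7 points lie near 3 and are open, while those of Col2a1, Col4a4, Col9a2, Col9a3 and Col25a1 lie among or near the points of the other groups.

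The other 10 genes (Col4a3, Col8a2, Col9a1, Col10a1, Col14a1, Col15a1, Col19a1, Col20a1, Col23a1 and Col28a1) were detected on both arrays of no group. Their signals lay between 2.73 and 12.3 in GFP, between 4.31 and 18.7 in LT7 and between 2.82 and 6.79 in ST7. The pair of Col20a1 probes carried the same sequence and counts as 1 measurement. These genes are included in the counts over 40 genes and are not described further.

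In LT7 cells no collagen gene passed the test against GFP, although several fibrillar and type VI chains were brighter on both LT7 arrays than on both GFP arrays. With limma 0 of 40 collagen genes had an adjusted p under 0.05, against 0.182% of all gene names, and the lowest adjusted p was 0.10. At an unadjusted p under 0.05 there were 16 of 40, against 27.4% of all gene names. After the percentile shift both LT7 arrays lay above both GFP arrays for 17 collagen genes (38.2% of all gene names) and below them for 8 (14.7%), and the groups overlapped for 15. Among the genes detected on both arrays of some group, 12 lay above and 8 below, and 13 had an unadjusted p under 0.05 (limma). The others so counted were at background in every group. The median log2 change was 0.23 over the 40 collagen genes and 0.17 over all gene names.

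Col3a1 encodes the only chain of type III collagen, a fibril of elastic and healing tissue. Its signal was 9584 and 6275 on the GFP arrays and 32349 and 24542 on the LT7 arrays. Both LT7 values were above both GFP values, and the log2 change was 1.96 (SE 0.29, adjusted p = 0.10, limma), a ratio of 3.89 after the shift and of 3.63 without scaling. The dimmer Col3a1 probe read 18.4 and 14.6 in GFP and a mean of 51.1 in LT7, with a log2 change of 1.74. Both probes thus lay higher in LT7 by a like amount. The chains of type V collagen lay in the same direction with smaller differences. Col5a2 read 2457 and 2179 in GFP and 4704 and 3421 in LT7 (log2 change 0.89, SE 0.22, adjusted p = 0.10), and Col5a3 read 248 and 141 against 309 and 281 (log2 change 0.76, adjusted p = 0.13). For Col5a1, at 8046 and 6730 in GFP and 10738 and 8050 in LT7, the log2 change of 0.44 was about as large as its SE of 0.43. The SE is pooled over all 6 arrays and so also holds the spread of ST7, where Col5a1 read 3.31 and 8.04.

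The 3 measured chains of type VI collagen, whose products assemble into a heterotrimer, were brighter on both LT7 arrays. Col6a1 read 9963 and 8859 in GFP and 15669 and 15302 in LT7 (log2 change 0.82, SE 0.19, adjusted p = 0.10). Col6a2 read 2084 and 1826 in GFP and 3862 and 3445 in LT7 (log2 change 1.00, SE 0.23, adjusted p = 0.10). Col6a3 read 15112 and 11450 in GFP and 22808 and 16396 in LT7 (log2 change 0.65, SE 0.22, adjusted p = 0.13). None of the 3 groups of values overlapped, before or after scaling. With normexp background correction in place of the processed signal, Col3a1, Col6a1 and Col6a2 passed the adjusted threshold, the only 3 collagen genes to do so under any scaling tried, and with spike-in scaling the LT7 change of all 3 type VI chains and of Col3a1 was below 0. The spike-in probes of LT7 replicate 1, which was scanned alone, were far brighter than on the other 5 arrays.

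The brightest probes of the type I chains were saturated in GFP and LT7 and could not be compared. The brightest Col1a1 probe read 61238 and 61798 in GFP and 59779 and 62852 in LT7, and the Col1a2 probe 64313 and 69461 against 63768 and 62868, all saturated. Of the other Col1a1 probes, not saturated, 1 read 7022 and 5691 in GFP and 6963 and 9688 in LT7 with a log2 change of 0.48, and 1 read 270 and 192 against 234 and 316 with a change of 0.35. The LT7 and GFP signals of both dimmer probes overlapped before scaling. The percentile shift set the former probe's LT7 values above its GFP values and left those of the latter overlapping. Of the other fibrillar genes, Col11a1 (197 and 182 against 303 and 239) and Col27a1 (497 and 370 against 478 and 472) had log2 changes of 0.60 and 0.25. Col2a1, the chain of cartilage fibrils, read 506 and 373 in GFP and 382 and 1115 in LT7, so that 1 LT7 array lay within the range of GFP and the other above it.

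Other fibrillar, FACIT and network chains were dimmer on both LT7 arrays. Col8a1, a short-chain collagen of vessel walls and of Descemet's membrane in the eye, read 12318 and 13663 in GFP and 7587 and 7375 in LT7 (log2 change -0.70, SE 0.22, adjusted p = 0.12), and its dimmer probe gave -0.79. Col12a1, a FACIT chain of fibril surfaces, read 746 and 593 in GFP and 463 and 250 in LT7 (log2 change -0.87, SE 0.31, adjusted p = 0.15), and its dimmer probe gave -1.92. Col11a2 read 461 and 288 against 177 and 154 (log2 change -1.04, SE 0.48, adjusted p = 0.25). Col24a1 was detected on both GFP arrays, at 43.2 and 17.2, and on neither LT7 array, at 4.81 and 5.15, at least 1.20-fold lower (log2 change -2.35, SE 0.39, adjusted p = 0.10). The transmembrane chains Col13a1 (15.2 and 21.9 in GFP) and Col25a1 (15.7 and 12.5) were at background in LT7, at 4.88 to 6.39, and no fold could be given since the GFP signal was under the LT7 floor. Col7a1, the anchoring fibril of the skin, read 669 and 419 against 413 and 306, a log2 change of -0.48 with an SE of 0.38.

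The basement membrane genes were close to each other in GFP and LT7. Col4a1 read 1050 and 939 in GFP and 1479 and 836 in LT7, Col4a2 1928 and 1565 against 1720 and 1553, Col4a4 822 and 934 against 982 and 997, and Col4a5 236 and 223 against 213 and 291. These 4 genes had log2 changes of 0.26, 0.01, 0.27 and 0.22 and overlapping values after the shift. Only Col4a6 was apart, at 3251 and 2590 in GFP and 5709 and 3627 in LT7 (log2 change 0.75, SE 0.26, adjusted p = 0.14). Of its other probes 1 was also higher in LT7 (146 and 83.1 against 245 and 176), and 1 gave a change of -0.21, so that the probes of this gene disagreed in direction. The FACIT chains Col16a1 (41670 and 38424 against 40668 and 38131), Col22a1 (2371 and 1860 against 2644 and 1207), Col9a2 (59.0 and 46.4 against 38.7 and 45.5) and Col9a3 (26.1 and 14.7 against 13.5 and 23.2) had log2 changes of 0.08, -0.14, -0.22 and -0.05. Col17a1, the hemidesmosome collagen of epithelia, read 134 and 155 against 159 and 140, with a change of 0.15. Col18a1, a basement membrane proteoglycan, read 1183 and 766 against 1418 and 1282 (log2 change 0.60, SE 0.23, adjusted p = 0.17), and its dimmer probe gave 0.57.

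The fold rule of the study's methods was read here as a log2 ratio to the GFP mean that reaches 0.8 on each of the arrays and exceeds 1 on average, or the same below 0. It called 6 collagen genes in LT7, of which Col3a1 and Col6a2 were higher (3.10% of all gene names) and Col11a2, Col24a1, Col13a1 and Col25a1 were lower (3.13%). The last 3 were at background in LT7.

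**Figure D2:**
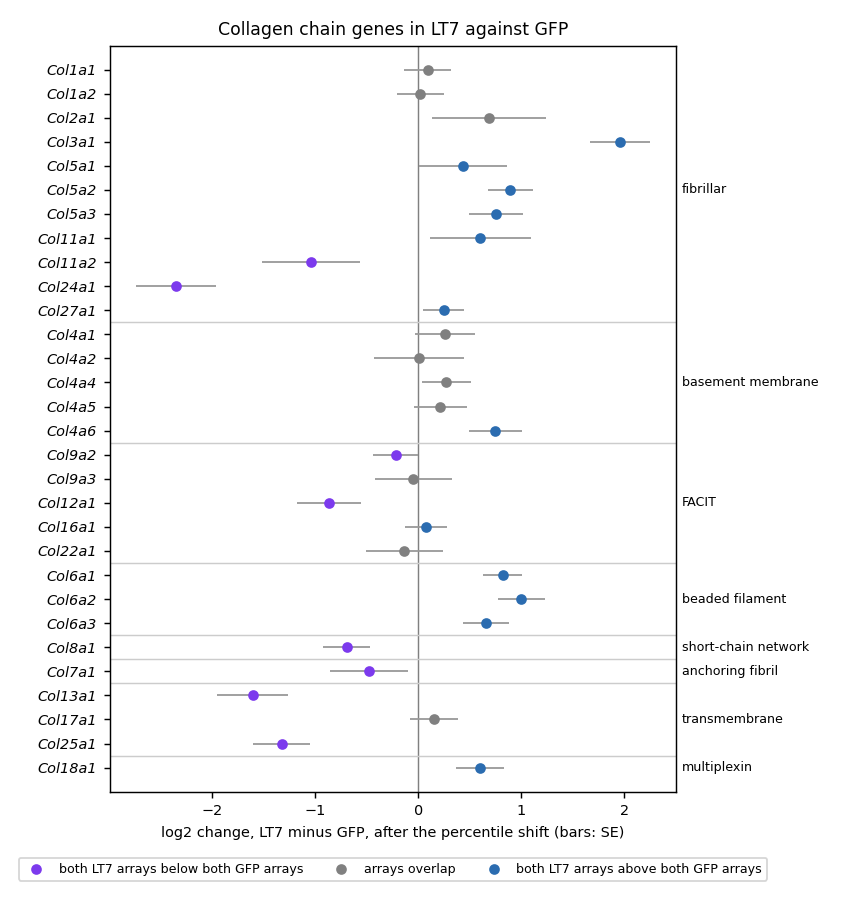
Log2 change in LT7 against GFP after the percentile shift for 30 collagen genes, by type, with bars for the SE of limma. This SE pools the spread of the 2 arrays of each group, ST7 included. Col3a1, Col5a2 and the chains of type VI lie to the right, from 0.65 to 1.96, and Col24a1, Col13a1, Col25a1 and Col11a2 to the left, from -2.35 to -1.04, and none passed an adjusted p of 0.05.

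On the ST7 arrays the brightest probes of the type III and V chains and of Col6a1 and Col6a3 were at background, while type I chains were detected at a far lower signal than in GFP. Of the 40 genes, each read by its brightest probe, 21 were lower than in GFP and 18 higher with an adjusted p under 0.05 (limma), while of all gene names 19.1% were lower and 72.3% higher, so that most of all genes passed. The split moved with the scaling: 1 collagen gene was higher and 28 lower without scaling, 15 and 22 with the percentile of the probes detected on all 6 arrays, 10 and 20 with quantile normalization, 0 and 21 with spike-in scaling, and 20 and 17 with normexp. The median log2 change was -1.12 over the collagen genes and 3.85 over all gene names, most of which were dim. Over the genes whose GFP signals both exceeded the 75th percentile, the median was -3.93 for 20 collagen genes and -2.92 for 12101 gene names. Of these, 17 of the 20 were called lower (64.6% of the gene names) and 7 were detected on both ST7 arrays (43.3%). These genes were taken for a high GFP signal, so the values are a description only. Of the 18 called higher, 10 belonged to the genes detected in no group. Of the 30 others, 18 had a negative change under all 6 ways of scaling or background correction tried, and 16 of these passed the test as lower under each of them. Among all 26294 gene names detected on both arrays of some group these shares were 34.4% and 28.7%. Col4a4, Col9a3 and Col25a1 had a positive change under all 6 (15.7% of those gene names), and 9 changed direction with the scaling. Of the 30 genes 29 were detected on both GFP arrays, so that they too were taken largely by their GFP signal. Before scaling, both ST7 signals lay below both GFP signals for 30 of the 40 genes (48.9% of all gene names) and above them for 6 (24.5%). Among the genes detected on both arrays of some group these counts were 26 and 2 (Col4a4 and Col25a1). The others so counted were at background in every group.

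Type I collagen remained detectable in ST7 at a far lower signal. Col1a1 read 295 and 255 on the ST7 arrays and Col1a2 98.1 and 86.6, all detected. With the GFP arrays saturated, Col1a1 was at least 10.6-fold lower after the shift (log2 change -3.41, SE 0.23, adjusted p = 4.8e-05) and at least 224-fold lower without scaling. For Col1a2 these bounds were 34.4-fold and 725-fold (log2 change -5.10, SE 0.23, adjusted p = 1.7e-05). The 2 dimmer Col1a1 probes were at background in ST7, with changes of -5.02 and -1.10. For the type III and V chains the brightest probe was at background. Col3a1 read 2.89 and 4.50 in ST7, at least 25.0-fold lower than in GFP (log2 change -6.67, SE 0.29, adjusted p = 1.7e-05). Col5a1 read 3.31 and 8.04 (log2 change -6.08, at least 23.7-fold) and Col5a2 2.85 and 3.17 (log2 change -5.19, at least 7.45-fold). By these probes each of the 5 genes fell under all 6 scalings. The other Col5a1 probe, detected on both GFP arrays and 1 ST7 array, went the other way after the shift, with a change of 1.94 (SE 0.35, adjusted p = 0.0030), and was 5.49-fold lower without scaling. The brightest probes of Col5a3 (2.79 and 3.11), Col11a2 (2.91 and 7.75) and Col27a1 (2.85 and 3.17) were also at background in ST7, and their changes of -1.59, -1.86 and -2.76 after the shift became -5.99, -6.26 and -7.16 without scaling. The other probes of Col11a2 (26.1 and 29.2) and Col27a1 (18.1 and 19.3) were detected on both ST7 arrays, with changes after the shift of 4.46 and 1.66. For Col5a3 the change was 0.31 with normexp, and no fold after the shift could be given.

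The FACIT chain Col16a1 and the type VI chains Col6a1 and Col6a3 were at background in ST7 after a bright signal in GFP, so that only bounds can be given and the genes have no order. Col16a1 read 2.85 and 3.48 in ST7, at least 129-fold lower (log2 change -9.23, SE 0.20, adjusted p = 1.7e-05). Col6a3 read 2.88 and 3.11 (log2 change -7.70, at least 42.3-fold) and Col6a1 2.86 and 3.12 (log2 change -7.22, at least 30.2-fold). The other chain of the type VI trimer, Col6a2, was still detected at 51.0 and 39.5, with a log2 change of -1.04 (SE 0.23, adjusted p = 0.0071), 2.06-fold lower after the shift and 43.4-fold without scaling. Under quantile normalization its change was -0.60 and did not pass. Of the 3 chains of this trimer, 1 was thus still detected. Col8a1 also stayed detectable at 30.4 and 33.7, 19.2-fold lower (log2 change -4.26, SE 0.22, adjusted p = 2e-05), and Col22a1 (8.46 and 7.63) and Col12a1 (2.82 and 3.18) were at background with changes of -3.63 and -3.40.

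Among the type IV genes detected in GFP, Col4a4 went the other way than the rest when each is read by its brightest probe. This chain, which pairs with α3 and α5 chains in the mature kidney and lung, read 822 and 934 in GFP, 982 and 997 in LT7, against 1261 and 1464 in ST7. Both ST7 values were above all others before scaling, 1.55-fold over GFP, and the log2 change after the shift was 5.03 (SE 0.24, adjusted p = 1.7e-05). It was between 0.63 and 5.03 under the 6 scalings and passed in 5 of them. The other Col4a4 probe was at background on every array, so the increase rests on 1 probe. The brightest probes of Col4a1 (2.83 and 3.25), Col4a2 (8.40 and 3.63), Col4a5 (2.85 and 3.09) and Col4a6 (2.92 and 3.38) were at background in ST7, with log2 changes of -3.96, -3.90, -1.88 and -5.45. A dimmer probe of Col4a1, Col4a2 and Col4a6 was detected on both ST7 arrays, at means of 109, 71.2 and 85.6. After the shift these probes had positive changes of 1.54, 1.48 and 2.52, while those of Col4a1 and Col4a2 lay below GFP before scaling. With normexp the change of Col4a5 was 0.01, and no fold after the shift could be given since its GFP signal was under the ST7 floor. Col4a3, the gene next to Col4a4 in the mouse genome, was at background in all groups.

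Col2a1, Col7a1, Col9a2, Col9a3 and Col25a1 were also detected on both ST7 arrays. Col9a3, a FACIT chain of cartilage, read 25.2 and 25.5 in ST7 within the range of the GFP arrays, and Col9a2 read 26.0 and 30.7, below both GFP arrays before scaling. Their log2 changes after the shift were 4.77 and 3.51 (SE 0.38 and 0.22, adjusted p = 9.4e-05 and 3.9e-05), and that of Col9a2 was -0.89 without scaling. Col2a1 read 389 and 355, of which the first lay between the GFP values and the second below both, with a change of 4.18 after the shift and of -0.22 without scaling. Col25a1, a transmembrane collagen of neurons, read 29.1 and 19.4 in ST7, above both GFP arrays, of which 1 had detected it, and its change was 5.16 (SE 0.28, adjusted p = 2.2e-05). Neither Col25a1 nor Col9a3 passed without scaling (0.76 and 0.37, adjusted p = 0.078 and 0.57) or with spike-in scaling. Col7a1 read 217 and 120, 3.28-fold lower than GFP without scaling and 6.43-fold higher after the shift. For Col7a1, Col9a2 and Col2a1 the direction depended on the scaling. The same held for Col13a1 (8.30 and 10.1) and Col24a1 (3.11 and 3.69), which were at background. Col11a1, at 14.6 and 5.66 and detected on 1 ST7 array, did not pass after the shift, alone among the 40 genes, with a change of 0.02 (SE 0.49, adjusted p = 0.97). In limma it passed as lower without scaling (-4.38, adjusted p = 0.0013) and with the percentile of detected probes (-1.92, adjusted p = 0.013). With normexp it passed as higher (0.54, adjusted p = 0.0045). Col7a1, Col9a2, Col13a1, Col17a1 and Col24a1 likewise passed in opposite directions under different scalings. The brightest probes of Col17a1 (2.85 and 3.14) and Col18a1 (12.2 and 14.9) were at background with changes of -1.19 and -1.75. For Col17a1 no fold after the shift could be given since its GFP signal was under the ST7 floor. The other Col18a1 probe was detected at 65.3 and 51.9, with a change of 1.96 after the shift and a signal 5.43-fold lower than in GFP before it. Without GFP replicate 1 Col11a2 no longer passed (adjusted p = 0.074), and without ST7 replicate 2 Col24a1 did not (adjusted p = 0.063).

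**Figure D3:**
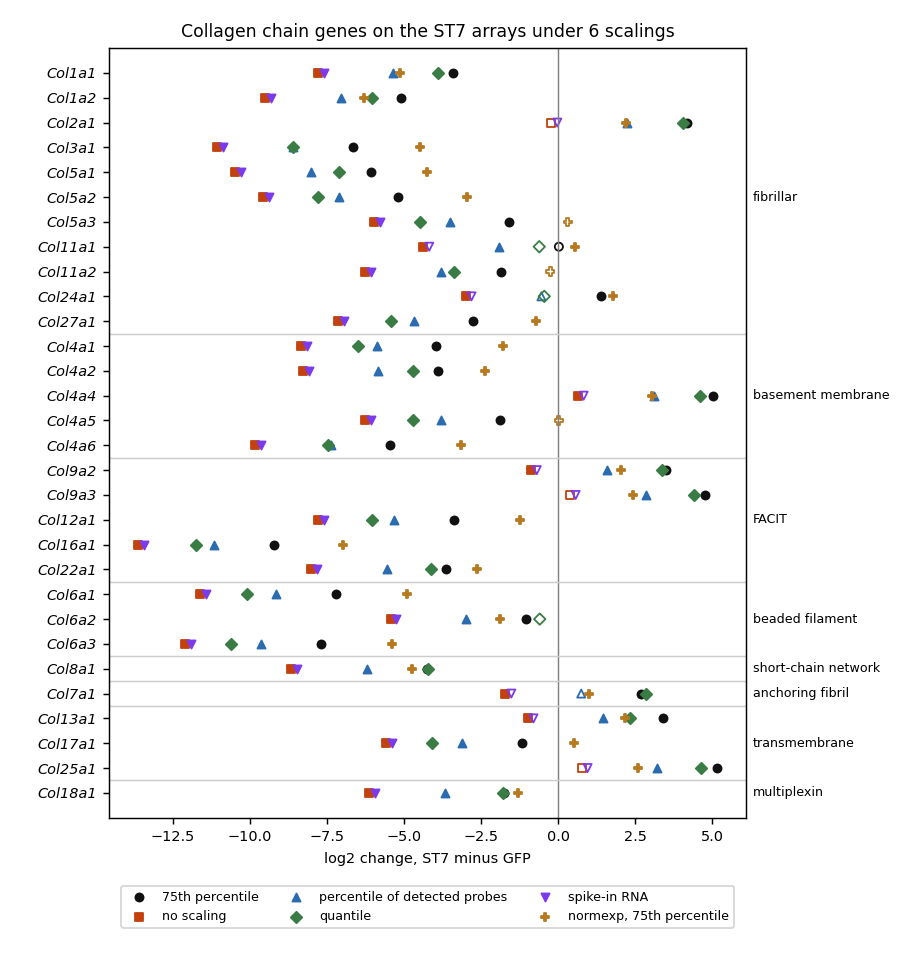
Log2 change in ST7 against GFP for 30 collagen genes under 5 ways of scaling and with normexp before the percentile shift. Filled symbols had an adjusted p under 0.05 in limma. The symbols of 18 genes lie left of 0 throughout, those of Col4a4, Col9a3 and Col25a1 right of 0 throughout, and those of the other 9 on both sides.

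The comparison of ST7 with LT7 shares the ST7 arrays with the one above. It gave 18 collagen genes higher and 20 lower with an adjusted p under 0.05, against 72.3% and 19.0% of all gene names. Among the chains detected on both arrays of both groups and not saturated, some were lower and some higher in ST7 after the shift. Col8a1 was 11.9-fold lower (log2 change -3.57, adjusted p = 4e-05) and Col6a2 4.12-fold lower (log2 change -2.04, adjusted p = 0.00042). Col4a4 was 27.1-fold, Col9a2 13.3-fold, Col2a1 11.2-fold and Col7a1 8.95-fold higher. For Col2a1, Col7a1 and Col9a2 the direction depended on the scaling. Col3a1 and Col6a1, at background in ST7, were at least 97.1-fold and at least 53.4-fold lower. Col11a1 (-0.58, adjusted p = 0.30) and Col11a2 (-0.82, adjusted p = 0.15) did not pass after the shift. Both passed as lower without scaling, and Col11a2 passed as higher with normexp.

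Probes of the same gene lay closer together in LT7 than in ST7. In 15 collagen genes at least 2 probes were detected on both GFP arrays. The log2 changes of these probes in LT7 spanned 0.00 to 1.23, with a median span of 0.25, and had opposite signs in 2 genes, Col4a6 and Col16a1. In ST7 the changes spanned 0.34 to 9.23, with a median of 5.37, and had opposite signs in 9 genes. In all 9 the brightest probe was at background in ST7, so that its change is set by the floor and by its GFP signal. In Col3a1, with the widest span, and in Col6a3 the dimmer probe was at background there too, and the opposite sign then carries no information on the transcript. In 6 genes (Col11a2, Col27a1, Col4a1, Col4a2, Col4a6 and Col18a1) a dimmer probe was detected on both ST7 arrays while the brightest was not. In Col1a1, Col2a1 and Col8a1 the brightest probe was kept, and in the other 6 no probe was. With the mean of all probes in place of the brightest, 21 collagen genes were higher and 16 lower in ST7 than in GFP. The changes of Col5a3, Col11a2, Col17a1 and Col18a1 then turned from negative to 1.79, 1.30, 0.80 and 0.11, and Col27a1 no longer passed (log2 change -0.55, adjusted p = 0.062).

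**Figure D4:**
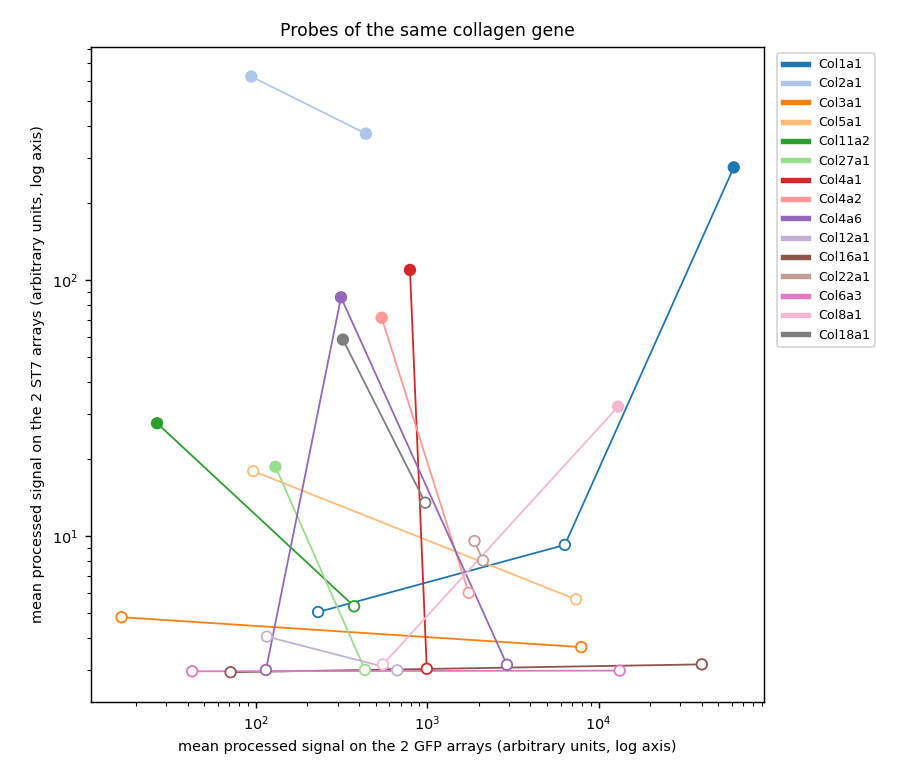
Mean processed signal before scaling on the 2 GFP arrays (x) and on the 2 ST7 arrays (y), both on log axes, of the probes of 15 collagen genes with at least 2 probes detected in GFP. Lines join the probes of a gene and filled points were detected on both ST7 arrays. In Col4a1, Col4a2, Col4a6, Col11a2, Col18a1 and Col27a1 the filled point is not the one farthest to the right.

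Col4a1 and Col4a2, the chains of the common basement membrane trimer, are neighbours in the mouse genome. The probes shown were detected in ST7 where the brightest probe of the same gene was not, and each is given from 5′ to 3′ as in the array files.
Col4a1: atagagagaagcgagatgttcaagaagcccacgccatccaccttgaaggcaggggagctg
Col4a2: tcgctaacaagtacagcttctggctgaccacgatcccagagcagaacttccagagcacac
The Col4a1 probe read 843 and 744 in GFP, 852 and 664 in LT7, against 110 and 109 in ST7, with a log2 change in ST7 of 1.54 against -3.96 by the brightest probe. The Col4a2 probe read 600 and 485 in GFP, 500 and 511 in LT7, against 72.6 and 69.8 in ST7, with a change of 1.48 against -3.90. Before scaling both ST7 signals lay below both GFP signals for both probes of both genes.

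The Col2a1 probes overlap, and they are shown because probes that share 40 of their 60 bases, in capitals, disagreed in the order of the groups before scaling.
Col2a1, brightest: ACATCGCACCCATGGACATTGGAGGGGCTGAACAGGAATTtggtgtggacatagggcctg
Col2a1, other: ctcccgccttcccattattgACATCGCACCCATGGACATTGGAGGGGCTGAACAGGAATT
The brightest probe read 506 and 373 in GFP and 389 and 355 in ST7, while the other read 119 and 68.9 in GFP and 570 and 674 in ST7. Both ST7 values of the latter lay above its GFP values before scaling. After the shift both probes were higher in ST7, with changes of 4.18 and 7.17. Since the direction of the brightest probe depended on the scaling, the level of Col2a1 in ST7 relative to GFP was not settled by these probes.

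In 3 collagen probes the repeat of the triple helix can be read from the bases. A glycine codon (GGN) stands every 9 bases, at least 6 times, and these codons are in capitals.
Col5a1: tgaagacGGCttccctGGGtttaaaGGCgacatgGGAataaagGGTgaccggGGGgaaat
Col5a3: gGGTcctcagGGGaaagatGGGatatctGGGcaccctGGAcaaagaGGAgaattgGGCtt
Col11a2: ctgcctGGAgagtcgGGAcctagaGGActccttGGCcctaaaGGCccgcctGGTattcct
No other probe among 36696 for protein-coding transcripts held the codon so often at this spacing. The Col5a1 probe read 112 and 81.7 in GFP, 88.3 and 114 in LT7, against 22.4 and 13.5 in ST7. The Col11a2 probe read 29.7 and 23.4 in GFP, 26.8 and 17.5 in LT7, against 26.1 and 29.2 in ST7, so that the ST7 signal lay within or near that of GFP where the brightest Col11a2 probe was at background. The Col5a3 probe was detected on no array, at 4.40 to 12.2.

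The promoters of Col1a2 and Col3a1 are shown because both transcripts were far lower on the ST7 arrays. The last 120 bases before the RefSeq transcript start are given 5′ to 3′ on the strand of the gene, GRCm38.p6, at chr6:4505498-4505617 (+) for Col1a2 and chr1:45311418-45311537 (+) for Col3a1. Capitals mark CCAAT, the box bound by NF-Y, and TATAA, the core of the TATA box, searched on both strands.
Col1a2: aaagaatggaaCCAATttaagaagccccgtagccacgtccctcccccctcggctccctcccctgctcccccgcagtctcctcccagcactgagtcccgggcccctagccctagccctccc
Col3a1: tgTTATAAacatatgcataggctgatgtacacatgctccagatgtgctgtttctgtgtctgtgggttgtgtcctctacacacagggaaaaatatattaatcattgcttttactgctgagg
In Col1a2 the CCAAT begins 109 bases before the start. In Col3a1 TATAA and its reverse TTATA overlap, beginning 117 and 118 bases before it. Of the 32 collagen genes with a promoter in the table, 12 held CCAAT and 7 TATAA in the 250 bases before the start. By promoter, CCAAT stood in 34.3% of 35 against 33.8% of the 32851 promoters of all genes, and TATAA in 7 of 35 against 22.8%. These are letters in a window and no measured sites.

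After the percentile shift, enzymes and receptors of the collagen pathway were called in both directions in ST7. Of 41 listed names (chain modification and folding, procollagen processing, cross-linking, receptors and uptake) 36 were on the array. In LT7 0 of 36 passed against GFP and their median log2 change was 0.27. In ST7 13 were higher and 20 lower with an adjusted p under 0.05 after the shift (72.3% and 19.1% of all gene names), with a median of -1.15, and under the other 5 scalings 0 to 15 were higher and 19 to 26 lower. Chain modification and folding had 5 higher and 10 lower (median -2.61), receptors and uptake 2 and 5 (median -3.18), procollagen processing 4 and 3 (median 2.33) and cross-linking 2 and 2 (median 0.46). Of those called higher, only Plod1, Ppib, Adamts14 and Loxl2 were detected on both ST7 arrays. Both receptors called higher, Itga2 and Itga10, were at background in every group, as were Tll1 and Tll2 of procollagen processing. For genes at background in every group a positive change carries no information on the transcript. Both GFP arrays detected 27 of the 36 (50.4% of all gene names), both LT7 arrays 26 (42.2%) and both ST7 arrays 9 (23.0%), the last near the share of all gene names. Lox, the lysyl oxidase that starts collagen cross-links, read 16565 and 16439 in GFP, 24634 and 16735 in LT7, against 2.80 and 3.09 in ST7, at least 53.1-fold lower in ST7 (log2 change -8.05, SE 0.25, adjusted p = 1.7e-05). Serpinh1, the collagen chaperone HSP47, read 56859 and 55934 in GFP, 60087 and 63176 in LT7, where it was saturated, and 11.3 and 13.4 in ST7, at least 182-fold lower (log2 change -7.77, SE 0.21, adjusted p = 1.7e-05). Both fell under all 6 scalings. Plod1, a lysyl hydroxylase of the chains, read 594 and 491 in GFP, 572 and 579 in LT7, against 285 and 277 in ST7, so that it was 1.92-fold lower before scaling and 11.0-fold higher after the shift. Loxl2, a lysyl oxidase known to cross-link type IV collagen, read 26.5 and 7.52 in GFP, 6.95 and 13.6 in LT7, against 20.9 and 26.3 in ST7, with a log2 change of 5.13 (SE 0.62, adjusted p = 0.00056) that was positive under all 6 scalings and passed in 4.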

How the data were processed

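Cy3-labelled RNA of 6 samples (GFP, LT7 and ST7, 2 biological replicates each) was hybridized to Agilent one-colour arrays of a single slide, and LT7 replicate 1 was scanned separately. The deposited files of Agilent Feature Extraction 10.5.1.1 give an intensity for each spot, background-subtracted and detrended by the authors' software, with a surrogate value near background. The authors deposited log2 values after the percentile shift of GeneSpring, and recomputed values differed from them by at most 0.025 in the median of an array. Here 19 to 141 outlier spots per array were left out, log2 of the processed signal minus the 75th percentile of the array was tested with limma (version 3.58.1, R 4.3.3) over all 6 arrays, and p was adjusted over 61307 probes by Benjamini-Hochberg at a threshold of 0.05. The method was checked on simulated data. Genes were counted by the probe with the highest mean signal over all arrays. Folds against a group at background used as floor the higher of the probe's signal and the lowest signal well above background on that array. A saturated bright group also gives only a lower limit. Every collagen gene detected on both arrays of some group is named, and of the pathway list the 2 lowest and 2 highest log2 changes in ST7 among measured genes that passed. The members and lists were chosen with earlier results of these data known. P-values measure the spread between 2 arrays a group from different passages, pooled over the 3 groups. The SE of LT7 against GFP therefore also holds the spread of the ST7 arrays. Alternatives were no scaling, the percentile of the probes detected on all arrays, quantile normalization, spike-in scaling on 5 probes, normexp with an offset of 50, a filter on dim probes, the deposited matrix, the mean of all probes, a replicate block, the fold rule and leaving out each array. The promoters are from RefSeq. The number of arrays limits the precision.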

Additional observations from a re-analysis of the deposited data

How the results depend on the processing

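With the series matrix, the replicate block or a filter on dim probes the same side of the threshold held for each count, with 0 (LT7), 39 (ST7) and 38 (ST7 against LT7) collagen genes under the first pair and 0, 29 and 28 of 30 with the filter. Leaving out 1 array gave 0, 38 to 39 and 38 to 39. Replicate numbers did not pair the arrays (correlation of deviations 0.078, 0.035 and -0.023 for GFP with LT7, GFP with ST7 and LT7 with ST7), and the replicate block changed no call. Spike-in scaling gave 21 in ST7 against GFP and 14 in ST7 against LT7, normexp 3 and the fold rule 6 in LT7 against GFP, and the cause was not tested. Under spike-in scaling the SE, pooled over all arrays, was 1.80 for the genes whose sign turned, in ST7 against GFP as in LT7 against GFP. Arrays limit what can be read here. The brightest probe of 29 collagen genes was at background on both ST7 arrays and gives at most a bound, though in 6 of them another probe was detected there. For 15 of the 40 genes no fold in ST7 against GFP could be given after the shift. The brightest type I probes were saturated in GFP and LT7. Without scaling, the sign of the log2 change turned in LT7 against GFP to -0.0052 (Col1a1), -0.078 (Col1a2), -0.088 (Col4a2), -0.023 (Col16a1), and in ST7 against GFP to -0.22 (Col2a1), -4.38 (Col11a1), -3.01 (Col24a1), -0.89 (Col9a2), -1.72 (Col7a1), -0.996 (Col13a1), and in ST7 against LT7 to -0.81 (Col2a1), -0.56 (Col24a1), -0.57 (Col9a2), -1.14 (Col7a1). With the percentile of the probes detected on all arrays, the sign of the log2 change turned in LT7 against GFP to -0.0027 (Col4a2), and in ST7 against GFP to -1.92 (Col11a1), -0.55 (Col24a1). With quantile normalization, the sign of the log2 change turned in LT7 against GFP to -0.31 (Col1a2), -0.035 (Col4a2), 0.11 (Col9a3), and in ST7 against GFP to -0.62 (Col11a1), -0.45 (Col24a1). With spike-in scaling, the sign of the log2 change turned in LT7 against GFP to -2.12 (Col1a1), -2.20 (Col1a2), -1.53 (Col2a1), -0.26 (Col3a1), -1.78 (Col5a1), -1.32 (Col5a2), -1.46 (Col5a3), -1.61 (Col11a1), -1.97 (Col27a1), -1.96 (Col4a1), -2.21 (Col4a2), -1.94 (Col4a4), -2.00 (Col4a5), -1.47 (Col4a6), -2.14 (Col16a1), -1.40 (Col6a1), -1.21 (Col6a2), -1.56 (Col6a3), -2.06 (Col17a1), -1.62 (Col18a1), and in ST7 against GFP to -0.032 (Col2a1), -4.19 (Col11a1), -2.82 (Col24a1), -0.70 (Col9a2), -1.52 (Col7a1), -0.80 (Col13a1). With normexp, the sign of the log2 change turned in LT7 against GFP to 0.026 (Col9a3), and in ST7 against GFP to 0.31 (Col5a3), 0.011 (Col4a5), 0.52 (Col17a1), and in ST7 against LT7 to 0.13 (Col11a1), 0.56 (Col11a2), 0.40 (Col17a1). With the mean of all probes, the sign of the log2 change turned in LT7 against GFP to -0.40 (Col16a1), and in ST7 against GFP to 1.79 (Col5a3), 1.30 (Col11a2), 0.80 (Col17a1), 0.11 (Col18a1), and in ST7 against LT7 to 1.39 (Col5a3), 1.54 (Col11a1), 1.92 (Col11a2), 0.74 (Col17a1). Leaving out 1 array at a time, the changes whose sign turned ranged in LT7 against GFP -0.037 to 0.22 (Col1a1), -0.16 to 0.20 (Col1a2), -0.49 to 0.39 (Col9a3), -0.078 to 0.38 (Col17a1), -0.017 to 0.037 (Col4a2), -0.099 to 0.62 (Col4a1), -0.14 to 1.51 (Col2a1), -0.061 to 0.49 (Col4a5), -0.65 to 0.38 (Col22a1), and in ST7 against GFP -0.70 to 0.74 (Col11a1), and in ST7 against LT7 -1.31 to 0.14 (Col11a1).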
